A study of Bos grunniens and Bos grunniens x Bos taurus with 6 samples.

Results

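Transcripts of the ubiquitin-specific protease (USP) genes were followed through the cell classes of the testis of yak (Bos grunniens) and of the cattle-yak, the hybrid of cattle and yak whose males are sterile. Genes were taken by symbol: those named USP followed by a digit, with at least 10 unique molecular identifiers (UMIs, each counting 1 captured RNA molecule) over all libraries. This gave 43 genes of the 26961 features in the files, and each of the 43 symbols passed the minimum. USP43 lay on the threshold with 10 UMIs, the next gene, USP19, had 47, and no USP symbol fell below it. USP6NL was kept because its symbol follows the rule, although it encodes a GTPase-activating protein for Rab5 and is no protease. USP9Y, USP11, USP26, USP29 and USP51, of which several are known for testis expression or for lying on a sex chromosome, were not analysed here.

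Single-cell libraries were made with 10x Genomics chemistry from thawed testis pieces, which were digested with collagenase, hyaluronidase and trypsin. Yaks of 6 months (prepubertal, replicates 1 and 2) and of 18 months (adolescent, replicates 3 and 4) gave 2 libraries each. The remaining libraries came from sexually mature testes, 1 from a yak aged 4 years (replicate 5) and 1 from a cattle-yak whose age the labels leave out. The labels name no strain, treatment or genotype. Nothing in them says that libraries of the same age are different animals, and each p-value therefore reflects the spread of these libraries alone, which may be technical. Every library is tagged with "Germ cell" under cell line, yet somatic markers were abundant in the testis suspensions.

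Libraries held between 9575446 and 24762829 UMIs in 5104 to 8946 barcodes, and pairs of libraries shared 5 to 16 barcodes. Cells were gated by raw marker UMIs into 11 classes, among them 1191 spermatogonia (36 to 436 per library), 497 early spermatocytes, 368 late spermatocytes and 642 spermatids, the spermatids all from the 4-year library. The somatic gates held 2852 Sertoli, 2854 stroma, 1201 endothelial, 1404 mural (muscle-like cells of vessel and tubule walls), 2760 lymphocyte, 147 macrophage and 32 Leydig cells. Each marker list was highest in the class it defines in 44 of 44 pairs of list and library that could be compared. The gate picks cells by these same lists and so largely fixes that outcome, which is no independent check. No USP gene was a gate marker. Replicate 3 of 18 months stood apart in depth: its spermatogonia had a median of 9009.5 UMIs against 1825 to 4195.5 in the other libraries.

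Ubiquitin is a small protein that cells attach to other proteins to mark them for the proteasome or to change how they act, and deubiquitinases take it off again. USPs are the largest family of deubiquitinases and are cysteine proteases, most of them with their own set of substrates, such as histones, DNA repair factors, cell cycle regulators and membrane receptors. In the testis, ubiquitin marks are known to accompany meiosis and the replacement of histones by protamines in spermatids.

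Levels are given in CPM, the UMIs of a gene relative to all UMIs summed over the cells of a class in a library, so that sums of different depth can be compared. With all libraries pooled, 39 USP genes of 100 or more UMIs could be mapped over 9 classes. The pooled levels describe where each gene was read and weigh the libraries unequally: spermatids and nearly all late spermatocytes came from the 4-year library, and 436 and 397 of the 1191 spermatogonia from the libraries of 18 months. USP6NL was the only gene of the 39 highest in Sertoli cells and USP53 the only one highest in stroma. USP38, USP46 and USP54 were highest in endothelial cells, and USP24 and USP45 in lymphocytes. The map of pooled levels shows these peaks gene by gene.

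**Figure D1:**
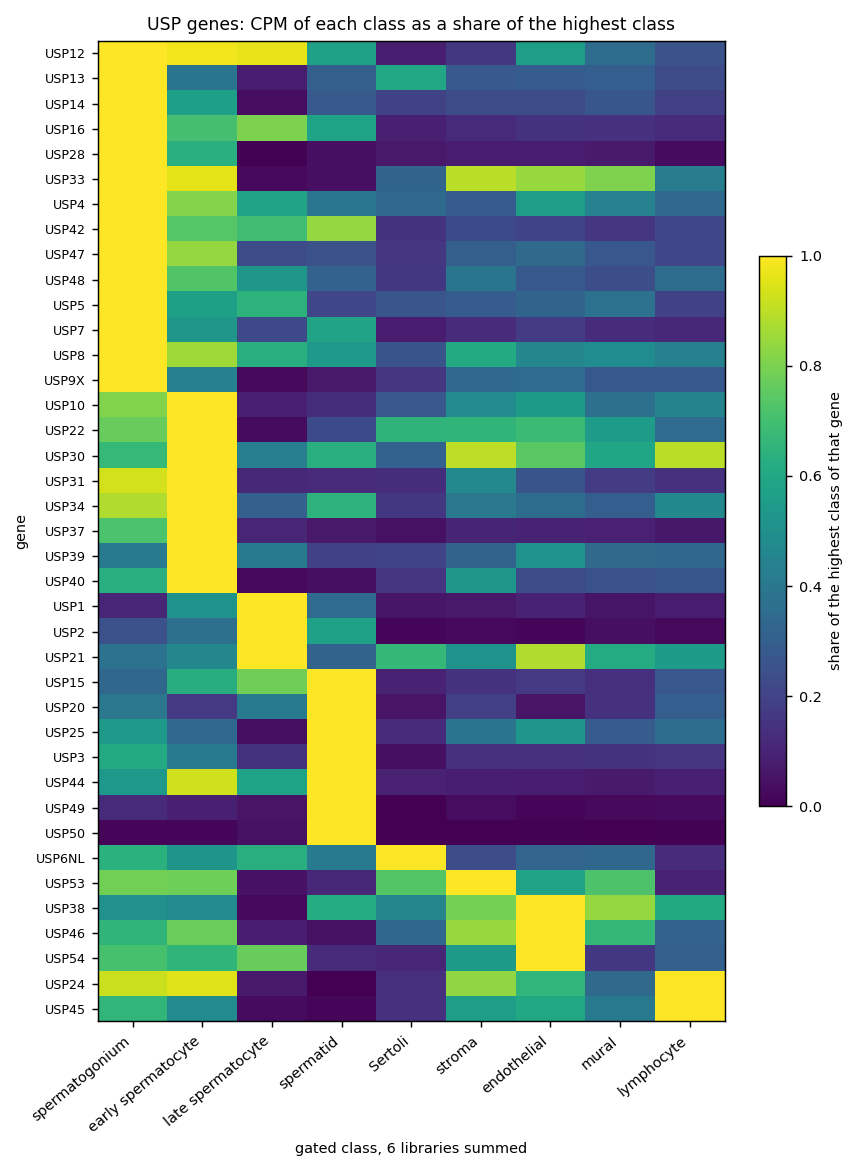
Pooled CPM of the 39 USP genes with 100 or more UMIs (rows) in 9 gated classes (columns), each row divided by its highest class (colour, 0 to 1). Genes are ordered by the class of their highest pooled level: USP12 to USP9X peak in spermatogonia, USP15 to USP50 in spermatids, and USP6NL to USP45 at the bottom in a somatic class.

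Spermatogonia, the dividing germ cells at the base of the tubule, were compared with the mean of the somatic classes within libraries. Of 38 USP genes tested, 21 were higher in spermatogonia and 2 were lower (edgeR quasi-likelihood, Benjamini-Hochberg adjusted p below 0.05, all 12802 genes tested together). Among all genes tested, 37.8% were higher and 8.96% lower. The median of all genes lay at 0.76 on the log2 scale, and that of the USP genes at 0.85, so the family as a whole was shifted about as far as the other genes. Of the 21 genes called higher, 17 lay above that median of all genes. At an unadjusted p below 0.05, 23 USP genes and 51.1% of all genes differed. USP19, USP20, USP27X, USP35 and USP43 were too low to be tested.

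Histone and chromatin USPs gave 5 higher and 1 lower of 7 tested, beside the shares of all genes given above. USP16, which removes ubiquitin from histone H2A, had the lowest p of the 38 genes. Its level in spermatogonia was 445 and 453 CPM in the 6-month libraries, 658 and 484 in those of 18 months, 523 in the 4-year library and 526 CPM in the hybrid. In Sertoli, stroma, endothelial, mural and lymphocyte sums it stayed between 36.3 and 121 CPM, apart from 210 CPM in the stroma of the 4-year library, a sum of 20 cells with 6 UMIs of the gene. The spermatogonia of every library thus lay above every somatic class of that library, and the difference was 2.40 ± 0.17 (log2, SE; edgeR quasi-likelihood, adjusted p = 4.17e-17), which is 1.64 above the median of all genes. USP7, which steadies MDM2 and p53 and acts on Polycomb complexes, read 131 and 84.5 CPM in spermatogonia at 6 months, 333 and 229 at 18 months, 176 in the 4-year library and 261 in the hybrid. It was higher in spermatogonia by 2.00 ± 0.21 (edgeR quasi-likelihood, adjusted p = 1.04e-11). USP3, an H2A protease of the DNA damage response, read 72.4 to 138 CPM in spermatogonia and 6.21 to 12.1 CPM in Sertoli cells, and at most 55.6 CPM in stroma, 44.4 in lymphocytes, 37.3 in endothelial and 36.3 in mural cells. Its difference was 1.82 ± 0.26 (edgeR quasi-likelihood, adjusted p = 3.17e-08). USP44, an H2B protease that also acts in the mitotic checkpoint, was low everywhere, with 6.04 to 20.1 CPM in spermatogonia and at most 6.81 CPM in the Sertoli, stroma, endothelial, mural and lymphocyte sums. It was higher by 2.15 ± 0.61 (edgeR quasi-likelihood, adjusted p = 0.00286). USP49, a further H2B protease, had no UMI in the spermatogonia of 6 months and 3.89 to 16.1 CPM in those of the other libraries. It was called higher by 2.90 ± 0.86 (edgeR quasi-likelihood, adjusted p = 0.00539), and under 8 of the 10 alternatives in which it was tested.

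USP21, an H2A protease, went the other way. Spermatogonia held 214 and 127 CPM at 6 months, 89.8 and 154 at 18 months, 101 in the 4-year library and 76.4 in the hybrid. Endothelial cells of the same libraries, in the same order, held 238 and 335, 162 and 266, 278 and 246 CPM. Spermatogonia were below the endothelial cells of their library in each of the 6 libraries, and the difference from the somatic mean was -0.85 ± 0.20 (edgeR quasi-likelihood, adjusted p = 0.000361). They were below every somatic class in only 3 of the 6 libraries. At 6 months, replicate 1, their 214 CPM lay above the 175 CPM of Sertoli cells, and stroma and lymphocytes reached at most 184 and 187 CPM in any library. USP22, the H2B protease of the SAGA coactivator, read 0 to 10.3 CPM in spermatogonia and did not pass the test. USP27X, its X-linked relative, was near the limit of detection, with at most 6.05 CPM in any class sum, that in Sertoli cells of 18 months, replicate 3.

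Among the USPs of DNA damage and the cell cycle, 5 of 8 were higher and none lower, beside the same shares of all genes. USP37, which protects cyclin A at the entry into S phase, read 72.4 and 36.2 CPM in spermatogonia at 6 months, 164 and 115 at 18 months, 162 in the 4-year library and 177 in the hybrid. USP28, which opposes the breakdown of MYC, read 58.6 and 78.5, 321 and 133, 181 and 169 CPM in the same order. Both were at or below 53.2 CPM in every somatic sum of 20 or more cells, and in all 6 libraries their spermatogonia lay above every somatic class of that library. Across libraries USP37 did overlap, through the 36.2 CPM in spermatogonia of 6 months. The differences were 3.36 ± 0.35 for USP37 (edgeR quasi-likelihood, adjusted p = 1.33e-11) and 3.05 ± 0.33 for USP28 (adjusted p = 3.87e-11). USP47, which acts in base excision repair, read 60.4 to 206 CPM in spermatogonia and was higher by 1.32 ± 0.21 (edgeR quasi-likelihood, adjusted p = 3.51e-07). USP10 (1.43 ± 0.58, edgeR quasi-likelihood, adjusted p = 0.0371) and USP48 (0.66 ± 0.27, adjusted p = 0.0400) were also called, USP10 under 5 and USP48 under 9 of 17 alternative settings. USP1, which takes ubiquitin off FANCD2 and PCNA, gave a difference of 0.40 ± 0.33 that did not pass the test.

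Of the USPs at endosomes, membranes and mitochondria, 4 of 8 tested were higher, beside the same shares of all genes. USP2, known for isoforms of the testis, read 10.3 to 39.0 CPM in spermatogonia and 0 to 12.3 CPM in the Sertoli, endothelial, mural and lymphocyte sums. It was higher by 2.82 ± 0.59 (edgeR quasi-likelihood, adjusted p = 6.3e-05). USP12, which like USP1 and USP46 works with the cofactor WDR48, read 18.1 to 48.4 CPM in spermatogonia and was higher by 1.92 ± 0.53 (edgeR quasi-likelihood, adjusted p = 0.00213). USP34, a protease of the Wnt pathway (0.68 ± 0.19, adjusted p = 0.00301 by edgeR quasi-likelihood), and USP8 (0.52 ± 0.22, adjusted p = 0.0455) were called at a level below the median of all genes. USP9X, an X-linked protease of many substrates, gave 0.53 ± 0.33 and did not pass the test. Both genes of ubiquitin recycling were higher. USP5, which cleaves free ubiquitin chains, rose by 0.93 ± 0.24 (edgeR quasi-likelihood, adjusted p = 0.00115), and USP14, a protease bound to the proteasome, by 0.84 ± 0.25 (adjusted p = 0.00408). Of the paralogs USP4 and USP15, which act on splicing factors and on TGF-beta signalling, the differences were 0.78 ± 0.21 and 0.75 ± 0.19 (edgeR quasi-likelihood, adjusted p = 0.00206 and 0.00075), both level with the median of all genes. USP39, a part of the spliceosome without protease activity, did not pass.

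USP25, grouped with interferon signalling, did not pass (0.86 ± 0.86, edgeR quasi-likelihood, adjusted p = 0.495). The remaining members gave 3 higher and 1 lower of 9 tested, again beside those shares of all genes. USP42 (0.86 ± 0.28, edgeR quasi-likelihood, adjusted p = 0.00944) was called under 12 of 17 alternatives. USP31 (2.63 ± 0.90, adjusted p = 0.0127) was called under 11 of the 13 in which it was tested. USP50, a short relative of USP8, read 13.8 and 36.2 CPM in spermatogonia at 6 months, 12.2 and 7.96 at 18 months, 17.7 in the 4-year library and 4.02 in the hybrid, and was higher by 2.87 ± 0.78 (edgeR quasi-likelihood, adjusted p = 0.0018). Mural, endothelial and lymphocyte cells of the 4-year library, the only one with spermatids, held 15.2, 21.3 and 29.8 CPM of USP50, against at most 3.67 CPM in the same classes elsewhere. USP38 was lower in spermatogonia, with 0 to 17.0 CPM against 12.1 to 38.6 CPM in endothelial cells and a difference of -1.73 ± 0.40 (edgeR quasi-likelihood, adjusted p = 0.000248). Sertoli cells (2.33 to 28.2 CPM) and lymphocytes (6.15 to 24.7 CPM) overlapped the spermatogonia across libraries. Spermatogonia were below every somatic class in 4 of the 6 libraries. The spermatogonium level was above every somatic class in all 6 libraries for 9 USP genes, beside 12.8% of all genes tested.

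**Figure D2:**
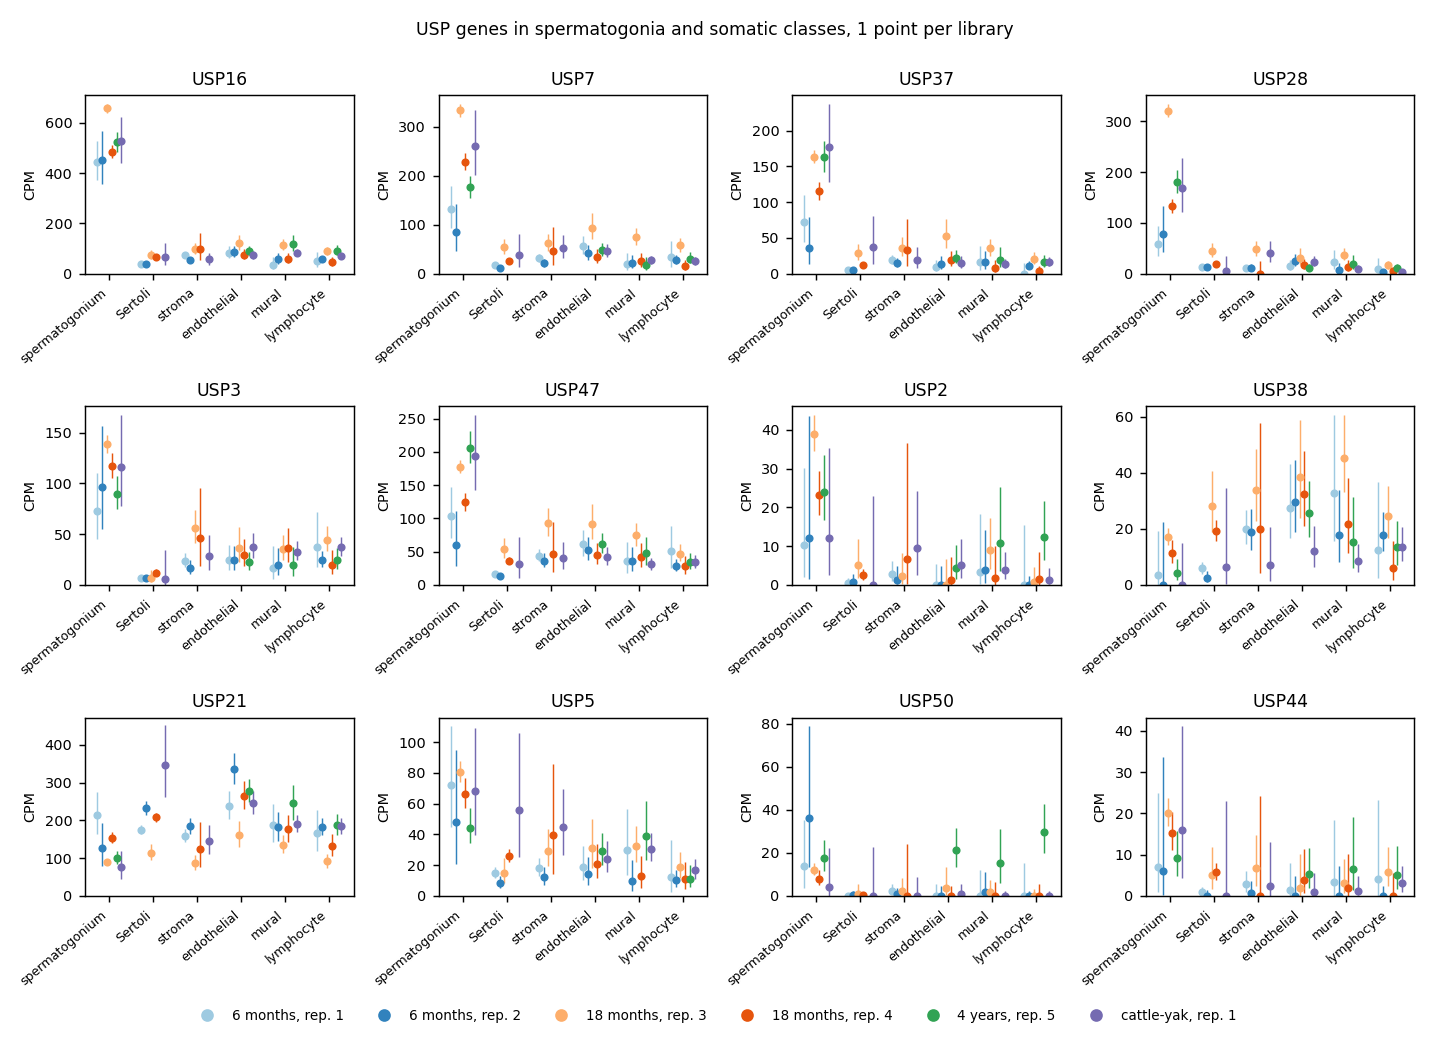
CPM of the 12 USP genes whose difference between spermatogonia and somatic classes was called under each alternative run (panels, ordered by p), by class on the horizontal axis, 1 point per library with its exact 95% Poisson interval, which covers counting error only. Stroma of the 4-year library (20 cells) is not drawn. USP16, USP7, USP37 and USP28 lie above the somatic points in each library, while USP21 and USP38 lie lower in spermatogonia than in endothelial cells.

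The call held under every alternative in which the gene was tested (16 for USP50, 17 for the others) for 12 of the 23 genes: USP16, USP7, USP37, USP28, USP3, USP47, USP2, USP5, USP50 and USP44 as higher, and USP38 and USP21 as lower. DESeq2 called 13 higher and 4 lower, with a median of all genes of 0.04, and library totals without TMM scaling (trimmed mean of M-values, which corrects for RNA composition) gave 24 and 2, with a median of 1.13. The Leydig sum was a single one of 25 cells; without it, 18 of 36 genes tested were higher and 3 lower, the median of all genes was 0.36, USP37 stood at 2.32, USP44 at 1.42 and USP12 at 0.89, and USP10 (0.27, edgeR quasi-likelihood, adjusted p = 0.370) and USP8 (0.37, adjusted p = 0.0775) were no longer called.

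Each somatic class was then compared with the mean of the others. In Sertoli cells, the nurse cells of the tubule, 8 of 38 USP genes were higher and 1 was lower, beside 23.0% and 2.74% of all genes, whose median lay at 0.61. USP6NL read 24.1 and 14.0 CPM at 6 months, 37.3 and 35.3 at 18 months, with 6.21 CPM for the hybrid, where the sum rests on 57 cells. Stroma, endothelial, mural and lymphocyte sums held 0 to 10.5 CPM, so the cattle-yak value lay inside the range of these classes and the yak values above it. The difference was 2.48 ± 0.34 (edgeR quasi-likelihood, adjusted p = 6.12e-08), and it is the single Sertoli call that held under all 17 alternatives. USP21, USP53, USP22, USP1, USP28, USP13 and USP10 were also called higher and USP24 lower. USP10 was called under 3 of 17 alternatives and stood at 0.39 without the Leydig sum (edgeR quasi-likelihood, adjusted p = 0.286). With library totals in place of TMM scaling, 1 gene was higher and 11 were lower, and DESeq2 gave 3 and 7, so the direction of the Sertoli calls as a group depends on the scaling. The shares of all genes called under these scalings are not given here, so the counts show nothing particular to USP genes.

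In stroma, the connective tissue between tubules, 5 USP genes were higher and none lower, beside 14.2% and 1.44% of all genes (median 0.53). USP53, a member found at tight junctions, read 35.7 and 19.5 CPM at 6 months, 68.1 and 59.3 at 18 months, with 91.8 CPM for the hybrid, and had no UMI in the 20 stroma cells of the 4-year library. Lymphocytes held 0 to 6.58 CPM of it, below the stroma of each library but that one. USP53 was higher in stroma by 1.48 ± 0.34 (edgeR quasi-likelihood, adjusted p = 0.001) and lower in lymphocytes by 2.64 on the log2 scale (SE 0.54, adjusted p = 0.000134). USP46, USP40, USP54 and USP10 were the other stroma genes, of which USP10 was not called without the Leydig sum.

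Endothelial cells had 4 USP genes higher and none lower, beside 12.6% and 2.66% of all genes (median 0.28). USP46 read 53.7 and 65.7, 90.0 and 59.6, 61.3 and 53.4 CPM in the libraries from 6 months to the cattle-yak, against 13.5 to 27.7 CPM in lymphocytes, 29.7 to 65.1 in mural cells and 0 to 84.8 in stroma, so that endothelial and stroma levels overlapped and the cattle-yak was higher in stroma. It was higher by 1.09 ± 0.30 (edgeR quasi-likelihood, adjusted p = 0.00549) and was called under all 17 alternatives. Its paralog USP12 was higher by 2.03 ± 0.61 (edgeR quasi-likelihood, adjusted p = 0.0151), and by 0.97 without the Leydig sum. USP54 and USP25 were the other endothelial genes.

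Lymphocytes had 6 USP genes higher and 1 lower, beside 14.2% and 4.49% of all genes (median 0.40). USP15 read 121 and 126, 143 and 141, 162 and 163 CPM in lymphocytes of the libraries in the order used above, above the Sertoli, endothelial and mural cells of each library. The 3 macrophage sums, at 128 to 160 CPM, overlapped the lymphocytes, and stroma reached 210 CPM in the 20 cells of the 4-year library. USP45, a relative of USP16 that acts with the repair nuclease XPF, read 24.6 to 35.9 CPM and was the other gene called under all 17 alternatives. The differences were 1.07 ± 0.20 for USP15 (edgeR quasi-likelihood, adjusted p = 2.37e-05) and 1.69 ± 0.32 for USP45 (adjusted p = 5.3e-05). USP34, USP24, USP3 and USP10 were also higher, USP10 not without the Leydig sum. The split of 6 higher and 1 lower became 2 and 5 without TMM scaling and 4 and 4 by DESeq2. Shares of all genes for these runs are again not given, so the splits show nothing particular to USP genes. Mural cells gave 0 higher and 1 lower (USP42), beside 9.96% and 0.742% of all genes, and macrophages and Leydig cells gave none; at an unadjusted p below 0.05, 5 USP genes differed in macrophages and 2 in Leydig cells, beside 17.8% and 7.58% of all genes. By DESeq2 there was 1 call in Leydig cells and none in macrophages.

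The stages of germ cells could be followed only in the 4-year library, so the following values describe 1 library and carry counting error only. Spermatogonia (225 cells), early spermatocytes (371), late spermatocytes (363) and spermatids (642) held 2862, 2922, 2631 and 3106 CPM of USP transcripts in sum. Of 38 USP genes with 20 or more UMIs, 16 were highest in spermatogonia, 8 in early spermatocytes, 5 in late spermatocytes and 9 in spermatids, beside 36.1%, 17.8%, 19.4% and 26.7% of all genes. The lowest stage was the spermatogonium for 6, the early spermatocyte for 3, the late spermatocyte for 16 and the spermatid for 13, beside 25.4%, 10.1%, 33.6% and 30.8% of all genes.

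A first set of genes was far lower in late than in early spermatocytes. At least 2-fold lower in late than in early spermatocytes were 20 of 38 USP genes, and 4 were at least 2-fold higher, beside 40.0% and 17.8% of all genes. USP28 read 181 CPM in spermatogonia, 48.1 in early spermatocytes, 1.46 in late spermatocytes (5 UMIs) and 10.3 in spermatids. Its highest stage was 123 times its lowest (95% counting interval 52.2 to 383). USP33, which acts on the receptors of cell migration, read 72.1, 37.0, 1.46 and 2.33 CPM over the same stages. USP40 read 35.3, 42.0, 1.17 and 2.33 CPM, and USP45 read 17.7, 11.6, 0.879 and 0.467 CPM, the last from 1 UMI. USP46 gave 36.0, 50.3, 4.98 and 2.80 CPM. USP37 followed with 162, 206, 22.6 and 14.0 CPM. Each of these 6 genes was lower in late spermatocytes and in spermatids than in spermatogonia and early spermatocytes, although USP28 was higher in spermatids than in late spermatocytes and USP37 still had 77 UMIs in late spermatocytes.

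Other genes were lowest in late spermatocytes. USP14 read 81.9, 45.9, 3.52 and 29.9 CPM from spermatogonia to spermatids. USP25, the paralog of USP28, read 14.8, 7.74, 1.76 and 43.4 CPM, so the pair ended on opposite sides: USP28 at its highest in spermatogonia and USP25 in spermatids. USP38 read 4.24, 9.95, 0.586 (2 UMIs) and 16.3 CPM. USP3 read 89.7, 61.9, 29.9 and 205 CPM. USP7 read 176, 115, 61.5 and 163 CPM. The X-linked USP9X read 41.7, 12.2, 1.76 and 5.60 CPM, which gives a 23.7-fold span (10.3 to 67.2). USP22 read 7.77 and 8.29 CPM before 0.293 CPM (1 UMI) in late spermatocytes and 2.33 CPM in spermatids.

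Spermatids stood out by USP50. Its level was 17.7 CPM in spermatogonia, 13.8 in early spermatocytes, 35.2 in late spermatocytes and 789.7 in spermatids (1691 UMIs), 57.2 times the lowest stage (38.6 to 88.6). The neighbouring gene USP8, which sorts receptors at endosomes, read 136, 108, 84.7 and 72.9 CPM over the same stages and so went from high to low. Both genes lie side by side in the RefSeq annotation of the assembly Bosgru_T2T1.0, and whether counting used strand was not stated in the labels or headers. USP49 read 5.65, 2.21, 1.76 and 34.1 CPM, and its paralog USP44 read 9.18, 29.8, 18.7 and 32.2 CPM. USP15 was higher at each later stage, from 220 through 358 and 420 to 535 CPM, while its paralog USP4 read 78.4, 68.5, 61.2 and 41.1 CPM. Against spermatogonia, spermatids had 11 of 39 USP genes at least 2-fold higher and 17 at least 2-fold lower, beside 32.4% and 43.7% of all genes.

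Late spermatocytes were the peak of USP1, USP2 and USP21. USP1 read 107, 418, 654 and 227 CPM from spermatogonia to spermatids, USP2 read 24.0, 54.7, 129 and 73.8 CPM, and USP21 read 101, 157, 295 and 94.3 CPM. USP5 and USP6NL were also highest there, with 46.9 and 17.3 CPM, but within counting error of their spermatogonium values of 44.5 and 14.1 CPM. USP16 stayed between 344 and 523 CPM over the 4 stages.

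**Figure D3:**
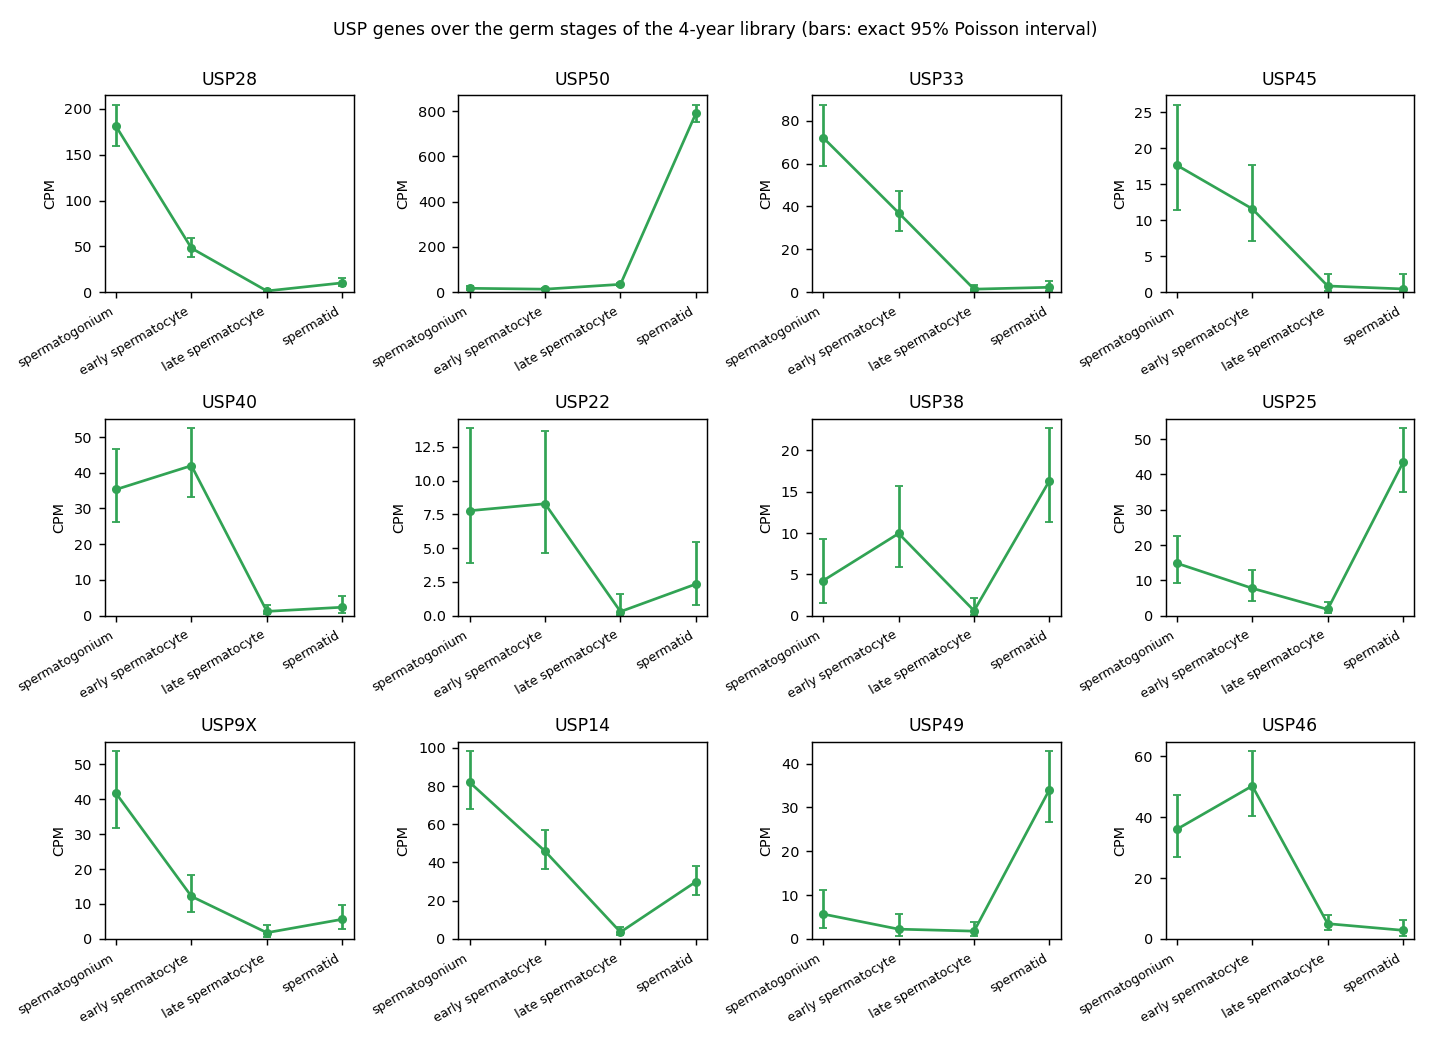
CPM of the 12 USP genes with the widest span over the 4 germ stages of the 4-year library (panels), with exact 95% Poisson intervals that cover counting error only. USP28, USP33, USP45, USP40 and USP46 are lower from late spermatocytes on than before, USP14, USP38 and USP25 dip in late spermatocytes, and USP50 and USP49 are highest in spermatids.

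A replicated stage comparison was possible for early spermatocytes, of which 18 months replicate 3 held 63 cells, the 4-year library 371 and the cattle-yak library 44. Of 38 USP genes, 2 were higher than in spermatogonia and none lower, beside 3.81% and 3.98% of all genes. USP1 read 65.9, 418 and 376 CPM in early spermatocytes of these libraries and 61.8, 107 and 96.5 CPM in their spermatogonia. The rise was thus seen in the 4-year and cattle-yak libraries but hardly in the 18-month library, and the fitted difference was 1.70 ± 0.37 (edgeR quasi-likelihood, adjusted p = 0.0022). USP40 read 80.1, 42.0 and 99.8 CPM against 37.9, 35.3 and 12.1 CPM, a difference of 1.06 ± 0.34 (edgeR quasi-likelihood, adjusted p = 0.0440).

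The early spermatocytes of 18 months replicate 3 stood apart from the other 2 sums. Their early spermatocyte markers summed to 1343 CPM, against 3260 CPM at 4 years and 5065 CPM in the cattle-yak, and their spermatogonium markers to 878 CPM, against 346 and 464 CPM. USP28 read 572 CPM in them and 48.1 and 49.9 CPM in the other 2, and USP7 read 306 against 115 and 61.4 CPM; the part of the gate in these values was not tested. Without that library USP1 stood at 2.41 (edgeR quasi-likelihood, adjusted p = 4.79e-06). USP1 was not called without the 4-year library (1.43, adjusted p = 0.0793) or without the cattle-yak (1.32, adjusted p = 0.0723), and USP40 not without the cattle-yak (0.54, adjusted p = 0.490).

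Between 6 and 18 months, whole libraries held 769 and 778 CPM of USP transcripts in the younger and 2404 and 1330 CPM in the older pair. No single USP gene of 41 tested was called over the whole library, beside 0.793% of all genes higher and 0.222% lower; at an unadjusted p below 0.05, 11 differed, beside 21.2% of all genes, and DESeq2 called 3. Spermatogonia were 52 and 36 gated cells at 6 months and 436 and 397 at 18 months, and in sums over whole libraries a change in the number of such cells and a change in their RNA cannot be told apart. Without TMM scaling the median of all genes moved to 0.98 and 16 USP genes were called higher. The shares of all genes called in that run and by DESeq2 are not given here. The 16 and the 3 therefore cannot be read as particular to USP genes.

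Within spermatogonia, 2 of 34 USP genes were higher at 18 months and none lower, beside 1.80% and 1.33% of all genes. USP9X had 1 UMI in each library of 6 months (3.45 and 6.04 CPM) and read 93.5 and 61.9 CPM at 18 months, with no overlap. The fitted difference was 3.87 ± 0.83 (edgeR quasi-likelihood, adjusted p = 0.000878); in pooled counts the ratio was 19.2, with a counting interval of 5.31 to 159. USP14 read 27.6 and 18.1 CPM, from 8 and 3 UMIs, against 125 and 88.2 CPM, a difference of 1.92 ± 0.59 (edgeR quasi-likelihood, adjusted p = 0.0411). USP28 came next, with 58.6 and 78.5 against 321 and 133 CPM, and missed the threshold (1.48 ± 0.49, edgeR quasi-likelihood, adjusted p = 0.0624). The median over the 34 genes was 0.92 and over all genes 0.11. Neither call held without either library of 6 months, where USP9X stood at 3.57 and 4.25 and USP14 at 2.46 and 1.72. Those fits leave 1 library of 6 months. DESeq2 called neither gene.

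In Sertoli, stroma, endothelial, mural and lymphocyte cells no USP gene was called between the ages, with edgeR or with DESeq2. At an unadjusted p below 0.05, 6 of 33, 5 of 28, 3 of 27, 1 of 19 and 0 of 24 differed, in that order, beside 15.5%, 17.6%, 6.98%, 8.53% and 4.45% of all genes. Over all genes the shares called after adjustment were between 0.0573% and 0.642% in each direction. The lowest p in Sertoli cells belonged to USP38 (1.69 ± 0.52, edgeR quasi-likelihood, adjusted p = 0.172), in stroma to USP24 (1.24 ± 0.43, adjusted p = 0.189) and in endothelial cells to USP53 (1.43 ± 0.50, adjusted p = 0.314).

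Whether the age difference in spermatogonia differed from the mean age difference of these somatic classes was tested directly, and 3 of 35 USP genes had a larger and 1 a smaller difference, beside 3.46% and 1.93% of all genes. USP9X differed by 3.20 ± 0.82 (edgeR quasi-likelihood, adjusted p = 0.0100), USP14 by 1.61 ± 0.48 (adjusted p = 0.0346) and USP8 by 1.19 ± 0.37 (adjusted p = 0.0389). USP8 read 51.7 and 48.3 CPM in the younger spermatogonia and 145 and 122 CPM in the older ones. USP15 differed the other way, by -0.97 ± 0.29 (edgeR quasi-likelihood, adjusted p = 0.0314). In spermatogonia it read 196 and 326 CPM in the younger and 185 and 143 CPM in the older libraries, while in Sertoli cells it read 26.2 and 21.4 against 70.6 and 85.0 CPM. DESeq2 called USP15 alone (-1.43, adjusted p = 0.00347), and without replicate 1 or replicate 2, or with at most 10% mitochondrial UMIs per cell, none of the 4 was called. The mitochondrial share of UMIs moved with age: it was 0.980% and 0.704% in spermatogonia of 6 months and 7.54% and 5.06% in those of 18 months, and 1.79% and 2.05% against 15.2% and 9.86% in Sertoli cells. Its part in these differences was not tested.

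**Figure D4:**
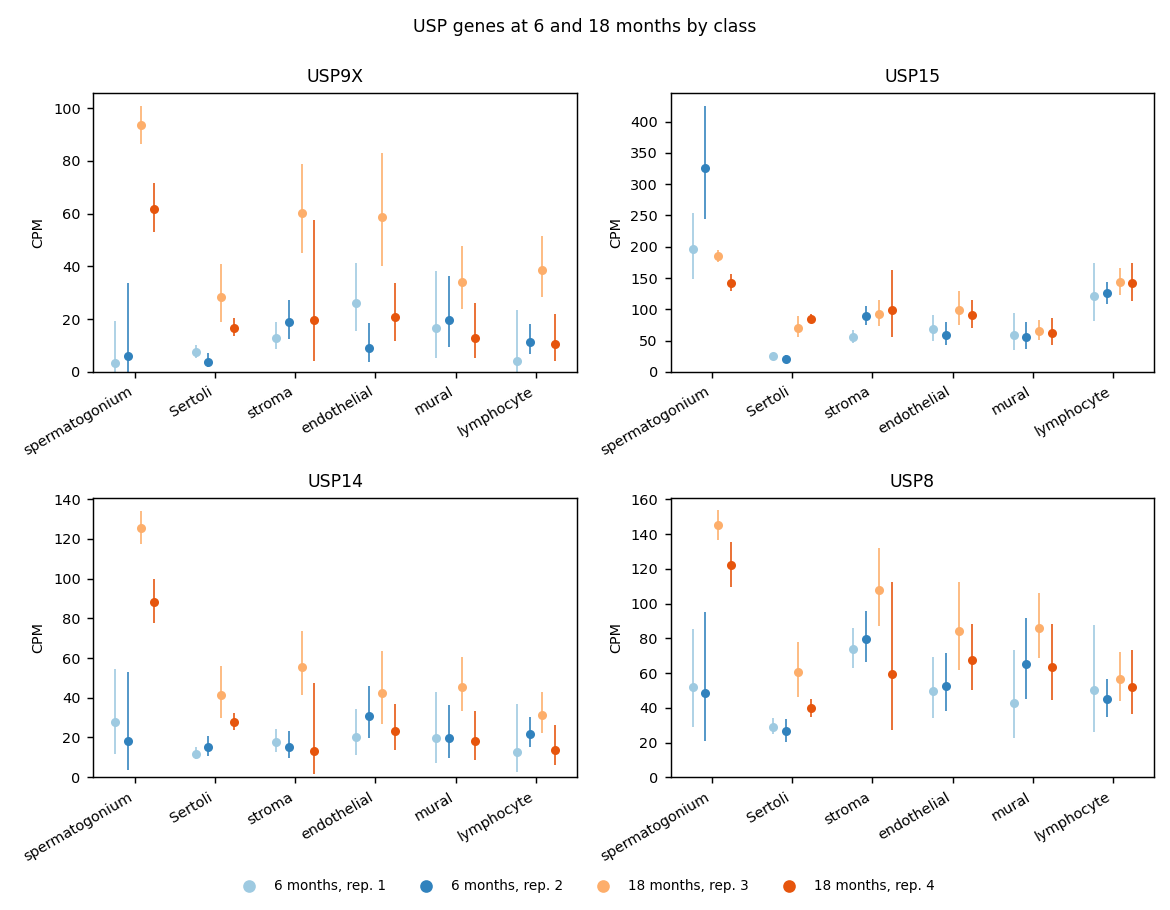
CPM of the 4 USP genes whose age difference in spermatogonia differed from that in somatic classes (panels), by class, 1 point per library of 6 months (blue) and 18 months (orange) with its exact 95% Poisson interval. USP9X, USP14 and USP8 are higher in both spermatogonium sums of 18 months, and USP15 is higher in Sertoli cells of 18 months.

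The cattle-yak library held 45 spermatogonia, 44 early spermatocytes, no gated late spermatocyte and no spermatid, so its germ cells could be set beside those of the 4-year yak in 2 classes only. Each side is 1 library, there is no replicate check, and the species, the animal and the library cannot be told apart; intervals cover counting error only. In spermatogonia 4 of 35 USP genes were at least 2-fold higher in the cattle-yak and 3 at least 2-fold lower, beside 8.21% and 12% of all genes. USP48, which acts on H2A beside BRCA1, read 84.4 CPM in the cattle-yak and 32.5 CPM at 4 years, a ratio of 2.60 (1.47 to 4.44). USP6NL gave 36.2 against 14.1 CPM, a ratio of 2.56 (1.03 to 5.88). The intervals of the other 5, USP31, USP49, USP40, USP46 and USP50, held 1. USP16 stood at 526 and 523 CPM, USP34 at 237 and 235 CPM and USP37 at 177 and 162 CPM.

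In early spermatocytes 3 of 36 USP genes were at least 2-fold higher in the cattle-yak and 6 at least 2-fold lower, beside 17.2% and 19.1% of all genes. USP48 again read higher, with 84.4 against 22.7 CPM, a ratio of 3.73 (2.11 to 6.40). USP40 gave 99.8 against 42.0 CPM (2.38, 1.46 to 3.75) and USP53 gave 46.0 against 17.7 CPM (2.60, 1.22 to 5.19). USP2 was lower, with 7.67 CPM from 2 UMIs against 54.7 CPM from 99 UMIs, a ratio of 0.140 (0.0168 to 0.520). USP12 was lower too, with 7.67 CPM from 2 UMIs against 43.7 CPM, a ratio of 0.176 (0.0209 to 0.656). USP24, USP30, USP38 and USP50 rested on 1 UMI each in the cattle-yak, and their intervals held 1. USP1 stood at 376 and 418 CPM, and USP16 at 288 and 431 CPM (0.668, 0.520 to 0.847). Late spermatocyte markers summed to 150 CPM in the early spermatocytes of the cattle-yak and 597 CPM in those of the 4-year yak, and the part of this in the USP2 and USP12 values was not tested.

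Set against the 5 yak libraries, the spermatogonia of the cattle-yak were above the yak range for 10 of 41 USP genes and below it for 3, beside 20.8% and 17.5% of all genes. USP48 was above it (84.4 CPM, yak 13.8 to 68.4), as were USP8 (177, yak 48.3 to 145) and USP6NL (36.2, yak 6.04 to 19.6), while USP21 was below it (76.4, yak 89.8 to 214). The cattle-yak sum held 248824 UMIs from 45 cells. Counting error was not set against the range, here or in the classes that follow, so these places are of single values only. In Sertoli cells, where the range covers 4 yak libraries because the 4-year library held only 19 such cells, 10 of 37 lay above and 10 below, beside 33.5% and 35.5% of all genes. In endothelial cells 2 of 37 lay above and 8 below, beside 9.92% and 19.3% of all genes, with USP38 at 12.1 CPM (yak 25.8 to 38.6) and USP12 at 12.1 CPM (yak 16.8 to 40.4) among the latter. Both were also at least 2-fold lower than at 4 years, with ratios of 0.469 (0.218 to 0.947) and 0.378 (0.179 to 0.743).

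Stroma had 3 of 37 above and none below (14.6% and 6.88% of all genes), mural cells 2 of 35 above and 4 below (7.30% and 11.3%), and lymphocytes 5 of 37 above and 2 below (15.6% and 7.18%). Against the 4-year library alone, endothelial cells had 2 of 34 USP genes at least 2-fold higher and 4 lower (4.76% and 21.1% of all genes), mural cells 3 of 32 and 2 (8.54% and 16.2%), lymphocytes 3 of 34 and 3 (11.3% and 16.8%), and stroma, with 20 cells at 4 years, 0 of 21 and 2 (5.73% and 19.7%). USP39 in endothelial cells (2.18, 1.07 to 4.64) and USP14 in lymphocytes (2.63, 1.20 to 6.55) were higher with intervals above 1.

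USP50 and USP2 gave the lowest ratios in somatic cells. USP50 had no UMI in 964 cattle-yak lymphocytes and 29.8 CPM in those of the 4-year yak, which makes it at least 16.1-fold lower with 3 counts as the floor. In endothelial cells it was 1.01 CPM against 21.3 CPM, a ratio of 0.0472 (0.00115 to 0.290), and USP2 in lymphocytes was 1.23 against 12.3 CPM, a ratio of 0.100 (0.0109 to 0.449). Beside these values, the summed spermatid markers in lymphocytes were 223 CPM at 4 years and 1.23 CPM in the cattle-yak. USP50 and USP2 are genes of late germ cells in the 4-year library, and free RNA of those cells in other droplets was not tested as their source.

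**Figure D5:**
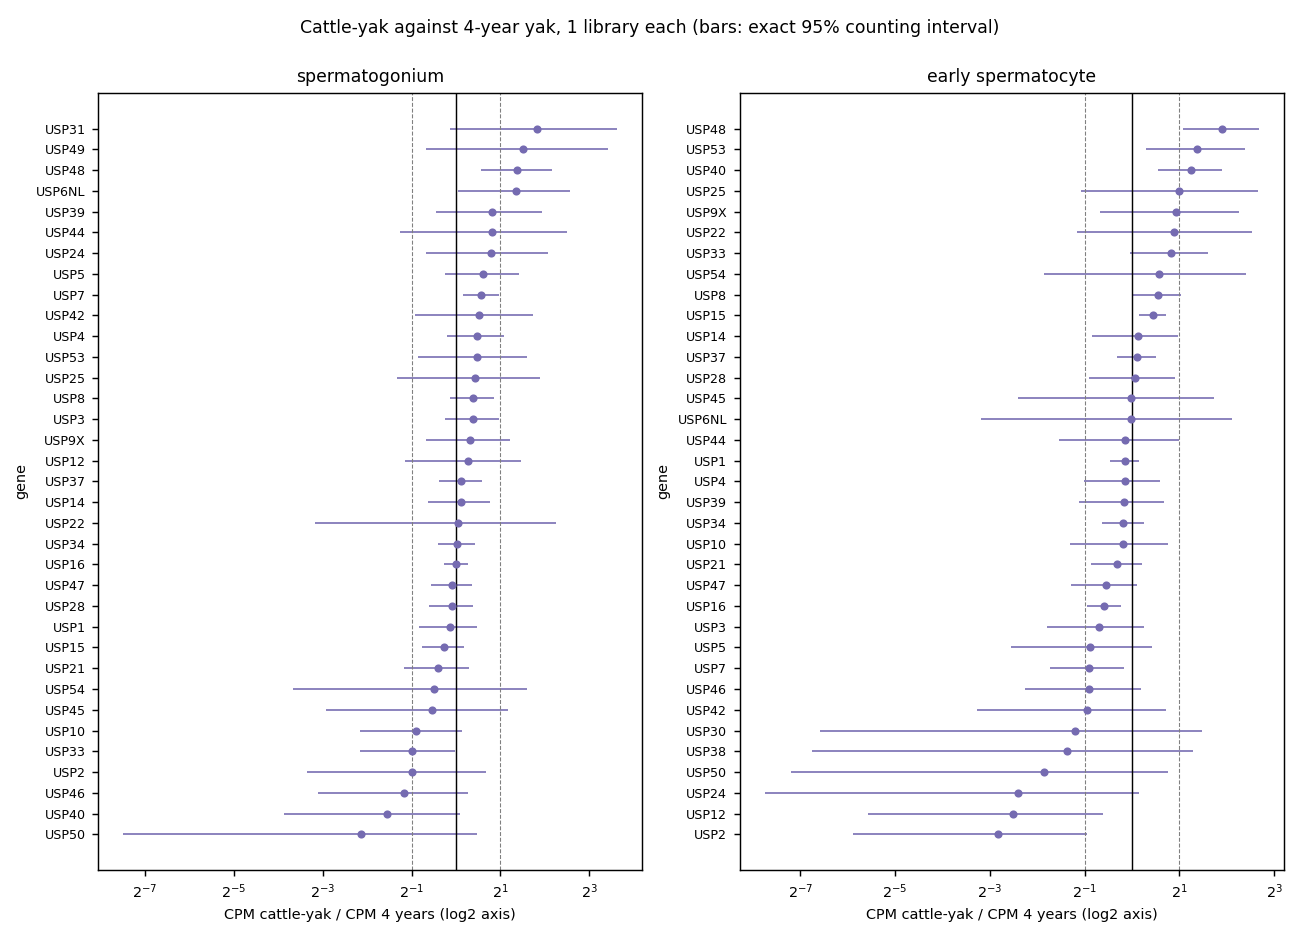
Ratio of CPM in the cattle-yak to CPM at 4 years (log2 axis) for the USP genes with 10 or more UMIs over both libraries and at least 1 UMI in each, in spermatogonia (left) and early spermatocytes (right), with exact 95% counting intervals; dashed lines mark 2-fold. USP48 lies above 1 in both classes, and USP2 and USP12 lie at the bottom of the early spermatocytes.

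Other genes of the ubiquitin system were set beside the USP genes. In spermatogonia against somatic classes, where 37.8% of all genes were higher and 8.96% lower, 12 of 26 other deubiquitinases were higher and 2 lower, with a median of 1.00, and 12 of 17 ubiquitin-conjugating (E2) enzymes were higher and 1 lower, with a median of 1.5. Of 5 ubiquitin and ubiquitin-activating (E1) genes, 2 were higher and the median was 0.05. The median was 0.85 for the USP genes and 0.76 for all genes. In 4-year spermatids against spermatogonia, 7 of 16 E2 genes were at least 2-fold higher and 6 at least 2-fold lower, beside 32.4% and 43.7% of all genes, with a median of 0.63, against a median of -0.87 for the 39 USP genes, -0.82 for 23 other deubiquitinases and -0.49 for all genes. Between the ages within spermatogonia, 2 of 21 other deubiquitinases, none of 16 E2 genes and none of the 5 ubiquitin and E1 genes were called, beside 1.80% of all genes higher and 1.33% lower.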

How the data were processed

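Single-cell libraries of testis were deposited as 10x matrices of raw UMI counts per gene and barcode, which the authors made with Cell Ranger; per the file headers its version was 5.0.0, whereas the submitters' processing notes name 2.1.1. No build is stated in the labels or headers. Barcodes were kept from 300.0 detected genes upward, unless over 20% of their UMIs were mitochondrial. A cell was gated to a class when that class's markers gave at least 3 UMIs from at least 2 genes and at least 2 times as many UMIs as any other list. This leaves doublets of 2 classes out in part, and removal of the top Scrublet scores was an alternative. Raw counts were summed per library and class where at least 20 cells were present, and tested with edgeR 4.0.16 in R 4.3.3 (TMM, filterByExpr, quasi-likelihood, Benjamini-Hochberg adjustment over all genes tested, threshold 0.05), with library as a block in class comparisons. The SE given after ± is approximate: the size of the log2 difference divided by the square root of the F statistic of its test. DESeq2 1.42.0 was an alternative, as were no low-count filter, no TMM, stricter gates, fewer mitochondrial reads, a minimum of 50 cells and leaving out each library; marker lists without HORMAD1 and WT1, and classes of 1 library left out, were added after seeing the data. The code was tested on simulated data. Single libraries were set side by side with exact 95% intervals (scipy 1.17.1), which cover counting error only. The genes named are those called in each test, some of those with the lowest p where fewer than 3 were called, the 12 with the widest span over the germ stages, and genes chosen after their values were seen to show their roles. The members and lists were chosen with earlier results of these data known. Of 76 marker genes, 63 were in the files, and 57 of these were highest in their own class, which a gate by the same genes favours. Among the rest, HORMAD1 read 948 CPM in macrophages against 198 CPM in early spermatocytes. WT1 read 175 CPM in spermatogonia against 38.5 CPM in Sertoli cells, and DMC1 read 204 CPM in spermatids against 69.8 CPM in early spermatocytes.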

Additional observations from a re-analysis of the deposited data

Results flagged for a closer look

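The age difference in spermatogonia differed from the mean age difference of the somatic classes for 4 USP genes, by a direct test of that difference (edgeR quasi-likelihood with Benjamini-Hochberg adjustment). USP9X differed by 3.20 on the log2 scale (adjusted p = 0.0100), USP14 by 1.61 (adjusted p = 0.0346) and USP8 by 1.19 (adjusted p = 0.0389), each with both spermatogonium sums of 18 months above both of 6 months. USP15 differed by -0.97 (adjusted p = 0.0314). The spermatogonium sums of 6 months rest on 52 and 36 cells, and USP9X had 1 UMI in each. By DESeq2 only USP15 was called, and none of the 4 was called without replicate 1, without replicate 2 or with at most 10% mitochondrial UMIs.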

How the results depend on the processing

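No gene called in the report changed sign under the alternatives run, but the splits of the Sertoli and lymphocyte calls depend on the scaling, as given there, and genes not called could change sign: USP16 in Sertoli cells stood at 0.42 with TMM and -0.45 without. Over the single genes followed, 1023 values kept their side of the threshold, 206 lost it and 34 gained it. Between spermatogonia and somatic classes, 23 USP genes were called with or without the replicate block, in which the library pairs the classes, and 17 to 22 when each library was left out in turn. The calls within somatic classes numbered 26, 20 without the replicate block, 43 with a minimum of 50 cells (24 higher, 19 lower) and 18 to 24 with a library left out. That minimum removes every Leydig and macrophage sum (at most 25 and 43 cells), so each class is then compared with fewer others. The counts of calls in this section are of USP genes only. Shares of all genes per setting are not given, so the counts describe the processing and not the family. In early spermatocytes the 2 calls became 1 without the low-count filter, 1 with the top Scrublet scores removed, 0 with a minimum of 50 cells, 1 without the replicate block, and 0 to 5 with a library left out. Over whole libraries the 0 age calls became 4 without the low-count filter, 3 by DESeq2, 16 without TMM and 0 to 7 with a library left out, 7 of them without replicate 4 of 18 months. Within classes the 2 age calls became 1 without the filter, 0 by DESeq2, 4 without TMM and 1 with at most 10% mitochondrial UMIs. With a minimum of 50 cells they became 0, because spermatogonia (36 cells in replicate 2) were then not tested. The 4 differences in age effect became 1 by DESeq2, 2 without TMM, 1 with the stricter gate and 0 with at most 10% mitochondrial UMIs. Leaving out a library of 6 or 18 months left a single library at that age, so counts of age calls from those runs are not given. USP genes past 2-fold between cattle-yak and 4 years moved from 6 to 3 in endothelial cells with a gate lead of 4 times, from 6 to 3 in lymphocytes with at most 10% mitochondrial UMIs, and from 0 to 1 in macrophages with the stricter gate. The causes were not tested. No paired analysis was possible for the ages because libraries of 6 and 18 months share no replicate number. Depth limits the 6-month spermatogonia and every germ cell sum of the cattle-yak.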
